A study of Homo sapiens with 60 samples.

Results

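9 human genes of the integrated stress response were followed in SW1783 cells, a line established from an astrocytoma. They are the transcription factor genes ATF4, ATF3, ATF5 and DDIT3 (which encodes CHOP), the feedback regulators TRIB3 and PPP1R15A (which encodes GADD34), the downstream genes CHAC1 and SESN2, and GDF15, which encodes a secreted cytokine. The genes were taken by name, for their place in this response, with earlier results of these data known. All 9 were present, under 1 Ensembl identifier each, among the 60675 genes of the count table, and all 9 passed the filter on low counts that left 17676 genes to be tested. The cells had been treated for 24 h with ethanol extracts of medicinal plants, and mRNA libraries were sequenced. For Astragali Radix, the high, medium and low doses were 220, 44 and 8.8 µg/mL. Sibjeondaebo-tang, Palmul-tang, Sagunja-tang, Samul-tang and Cinnamomi Cortex were given at 500, 100 and 20 µg/mL. These 6 extracts had 3 libraries at each dose, and Rehmanniae Radix Preparata had 1 library at each of 500, 100 and 20 µg/mL. The reference was the vehicle, dimethyl sulfoxide (DMSO), with 3 libraries; its concentration is 0.1% in the sample labels and 2% in the series text, a difference that was not resolved. According to the series text, an extract whose IC20 was below 500 µg/mL was given at most at that IC20, so the top Astragali dose is by that rule an inhibitory concentration; the assay behind it is not given. Palmul-tang is a formula made by joining Samul-tang with Sagunja-tang, and Cinnamomi Cortex and Astragali Radix added to it give Sibjeondaebo-tang.

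The integrated stress response starts when a kinase that senses stress in the endoplasmic reticulum, amino acid shortage, heme shortage, mitochondrial faults or viral RNA phosphorylates the translation factor eIF2. General translation then falls, while the ATF4 message is translated more. ATF4 protein, with partners such as CHOP, raises transcription of genes for amino acid supply, redox balance and, when stress lasts, cell death. Since ATF4 is controlled largely at translation, its RNA level does not give the amount of its protein, which was not measured here.

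Library totals ranged from 19793387 to 37152410 estimated counts, and from 24212214 to 26167537 in the vehicle. VIM and CD44, which glial tumour lines express, were high (medians over all libraries of 4440 and 2690 CPM), whereas the astrocyte markers GFAP, AQP4, S100B, ALDH1L1 and SLC1A2 were at or near 0 (medians of 0.0772, 0, 0.0772, 0 and 0.243 CPM). Of the other glial markers listed, SOX9 had a median of 65.3, SLC1A3 24.2, NES 6.04, OLIG2 0.207 and SOX2 0 CPM. The fibroblast markers COL1A1 and COL1A2 had 3950 and 2050 CPM. These levels alone do not establish a glial identity. The 3 low-dose Astragali libraries lay farther from their own group mean than any other, with a standard deviation over genes of 0.442, 0.558 and 0.457 on the log2 scale against at most 0.302 elsewhere; the main results that rest on them are given with and without 2 of them. The sample codes in the labels give the vehicle a code shared by no extract, so a difference between an extract and the vehicle cannot be told apart from a difference between codes. Comparisons of doses within an extract do not cross codes. The labels do not say whether libraries came from separate cultures, so p-values measure the spread between these libraries only.

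On GRCh38 (GENCODE v29), the genes lie on 6 chromosomes. ATF4 is at chr22:39519695-39522685, ATF3 at chr1:212565334-212620777, SESN2 at chr1:28259527-28282491, TRIB3 at chr20:362835-397559 and CHAC1 at chr15:40952962-40956519, all on the plus strand. GDF15 (chr19:18374731-18389176), PPP1R15A (chr19:48872392-48876057) and ATF5 (chr19:49928702-49933935) share a chromosome and the plus strand. DDIT3, at chr12:57516588-57521737, is the 1 member on the minus strand. Its span overlaps MARS1 and MBD6 on the opposite strand, and the protein-coding gene AC022506.1 and the microRNA gene MIR616 on its own strand. The span of ATF5 overlaps IL4I1, NUP62 and AC011452.1 on the opposite strand and the microRNA gene MIR4751 on its own strand. The library kit keeps strand, but the strand setting used in counting is not given in the sources used here, so reads of these partners may contribute to DDIT3 and ATF5. Overlaps on the same strand do not depend on that setting. Of the partners, only MARS1, MBD6, IL4I1 and NUP62 are followed below.

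The promoter windows of the 9 genes (RefSeq, GRCh38.p14, 250 bases before to 50 after each start, 16 windows) were searched on both strands for the C/EBP-ATF composite element TGATGNAA, through which ATF4 and CHOP bind, and for the cyclic AMP response element TGACGTCA, which ATF family dimers bind. The composite element was found in ATF3 and CHAC1, 2 of 9 genes and 2 of 16 windows; over all genes with windows it was in 4.46% of 27305 genes and 3.62% of 35116 windows. TGACGTCA was found in PPP1R15A alone among the 9, in 1 of 16 windows, and in 2.25% of all genes and 1.85% of all windows. The 3 stretches that hold these matches are shown. All 9 genes, with or without a match, rose at the high Astragali dose described next. Capitals mark the match, and each stretch is on the plus strand. None runs past the annotated gene start except the CHAC1 one, which lies inside the gene's longest annotated span.
ATF3, chr1:212565180-212565259, match at position -191 from the start: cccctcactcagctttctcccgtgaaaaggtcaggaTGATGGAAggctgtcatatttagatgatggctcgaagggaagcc
CHAC1, chr15:40953251-40953280, match on the minus strand at position -209 from the start: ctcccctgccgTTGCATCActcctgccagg
PPP1R15A, chr19:48872327-48872391, match at position -58 from the start: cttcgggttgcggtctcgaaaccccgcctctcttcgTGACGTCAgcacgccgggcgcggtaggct
The endoplasmic reticulum stress element ERSE was in none of the 16 windows, and in 0.0916% of all genes and 0.0769% of all windows. TGACNNNGC, a core of the antioxidant response element bound by NRF2, was in TRIB3 and PPP1R15A, 2 of 9 genes and 4 of 16 windows, and in 16.1% of all genes and 13.3% of all windows. These matches describe the letters of the windows only; binding was not measured.

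At the high dose of Astragali Radix all 9 genes were higher than in the vehicle, where 32.6% of the 17676 genes tested were higher and 35.6% lower at an adjusted p below 0.05. GDF15, ATF3 and TRIB3 changed most, by 116-fold, 89.1-fold and 44.0-fold, and ATF5 changed least, by 1.63-fold. The median log2 change of the 9 genes was 4.27, beside -0.062 over all genes tested. Levels are given as CPM (counts scaled to a library of fixed size) after TMM scaling, and changes as log2 fold changes with their standard error (SE) from edgeR's quasi-likelihood test, with Benjamini-Hochberg adjustment over all 17676 genes. In a bulk library, more RNA per cell and more cells that carry it cannot be told apart.

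ATF4, the activator at the centre of the response, had 1089, 1107 and 1027 CPM at the high Astragali dose and 135.5, 141 and 134 CPM in the vehicle. The groups did not overlap, and the log2 change was 2.97 (SE 0.087, edgeR adjusted p = 3.78e-31). ATF3, a repressor and activator that ATF4 induces, had 268, 256 and 221 CPM at the high dose against 2.02, 3.40 and 2.92 CPM in the vehicle. Its log2 change was 6.48 (SE 0.14, edgeR adjusted p = 2.67e-36), and every high-dose library was above every vehicle library. ATF5, a factor linked to the mitochondrial unfolded protein response, had 68.7, 65.6 and 65.7 CPM against 40.7, 40.9 and 41.3 CPM, a log2 change of 0.70 (SE 0.11, edgeR adjusted p = 3.43e-07). NUP62, on the strand opposite ATF5, fell (log2 -0.39), and IL4I1, also opposite, rose (log2 0.73, edgeR adjusted p = 0.0132). DDIT3, whose product CHOP promotes cell death under lasting stress, had 376.5, 401 and 383.5 CPM against 29.5, 32.0 and 29.4 CPM, a log2 change of 3.67 (SE 0.094, edgeR adjusted p = 2.15e-33). MARS1, which overlaps it on the other strand, rose by far less (log2 0.76), and MBD6 had a log2 change of 0.076 (edgeR adjusted p = 0.356).

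The feedback genes rose too. TRIB3, a pseudokinase that restrains ATF4 and AKT, had 1125, 1083 and 1002 CPM at the high Astragali dose against 24.5, 25.0 and 23.4 CPM in the vehicle, a log2 change of 5.46 (SE 0.080, edgeR adjusted p = 1.2e-42). PPP1R15A, the phosphatase subunit that removes the phosphate from eIF2, had 1124, 1047 and 878 CPM against 72.8, 69.2 and 75.5 CPM, a log2 change of 3.81 (SE 0.12, edgeR adjusted p = 1.12e-30). Every high-dose library was above every vehicle library for both genes. CHAC1, which degrades glutathione, had 173, 180.0 and 141 CPM against 6.77, 5.72 and 6.49 CPM (log2 4.70, SE 0.11, edgeR adjusted p = 1.28e-35). SESN2, a leucine sensor that restrains mTORC1, had 579.9, 529 and 479.5 CPM against 29.2, 27.6 and 25.5 CPM (log2 4.27, SE 0.081, edgeR adjusted p = 1.81e-38). GDF15, the secreted member, had 433, 443 and 422 CPM against 3.43, 3.87 and 3.87 CPM, a log2 change of 6.86 (SE 0.14, edgeR adjusted p = 1.29e-36). The vehicle gave GDF15 its lowest mean among the 19 groups with 3 libraries, and the high Astragali dose its highest. GFRAL and RET, the receptor of GDF15, did not pass the filter on low counts.

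**Figure D1:**
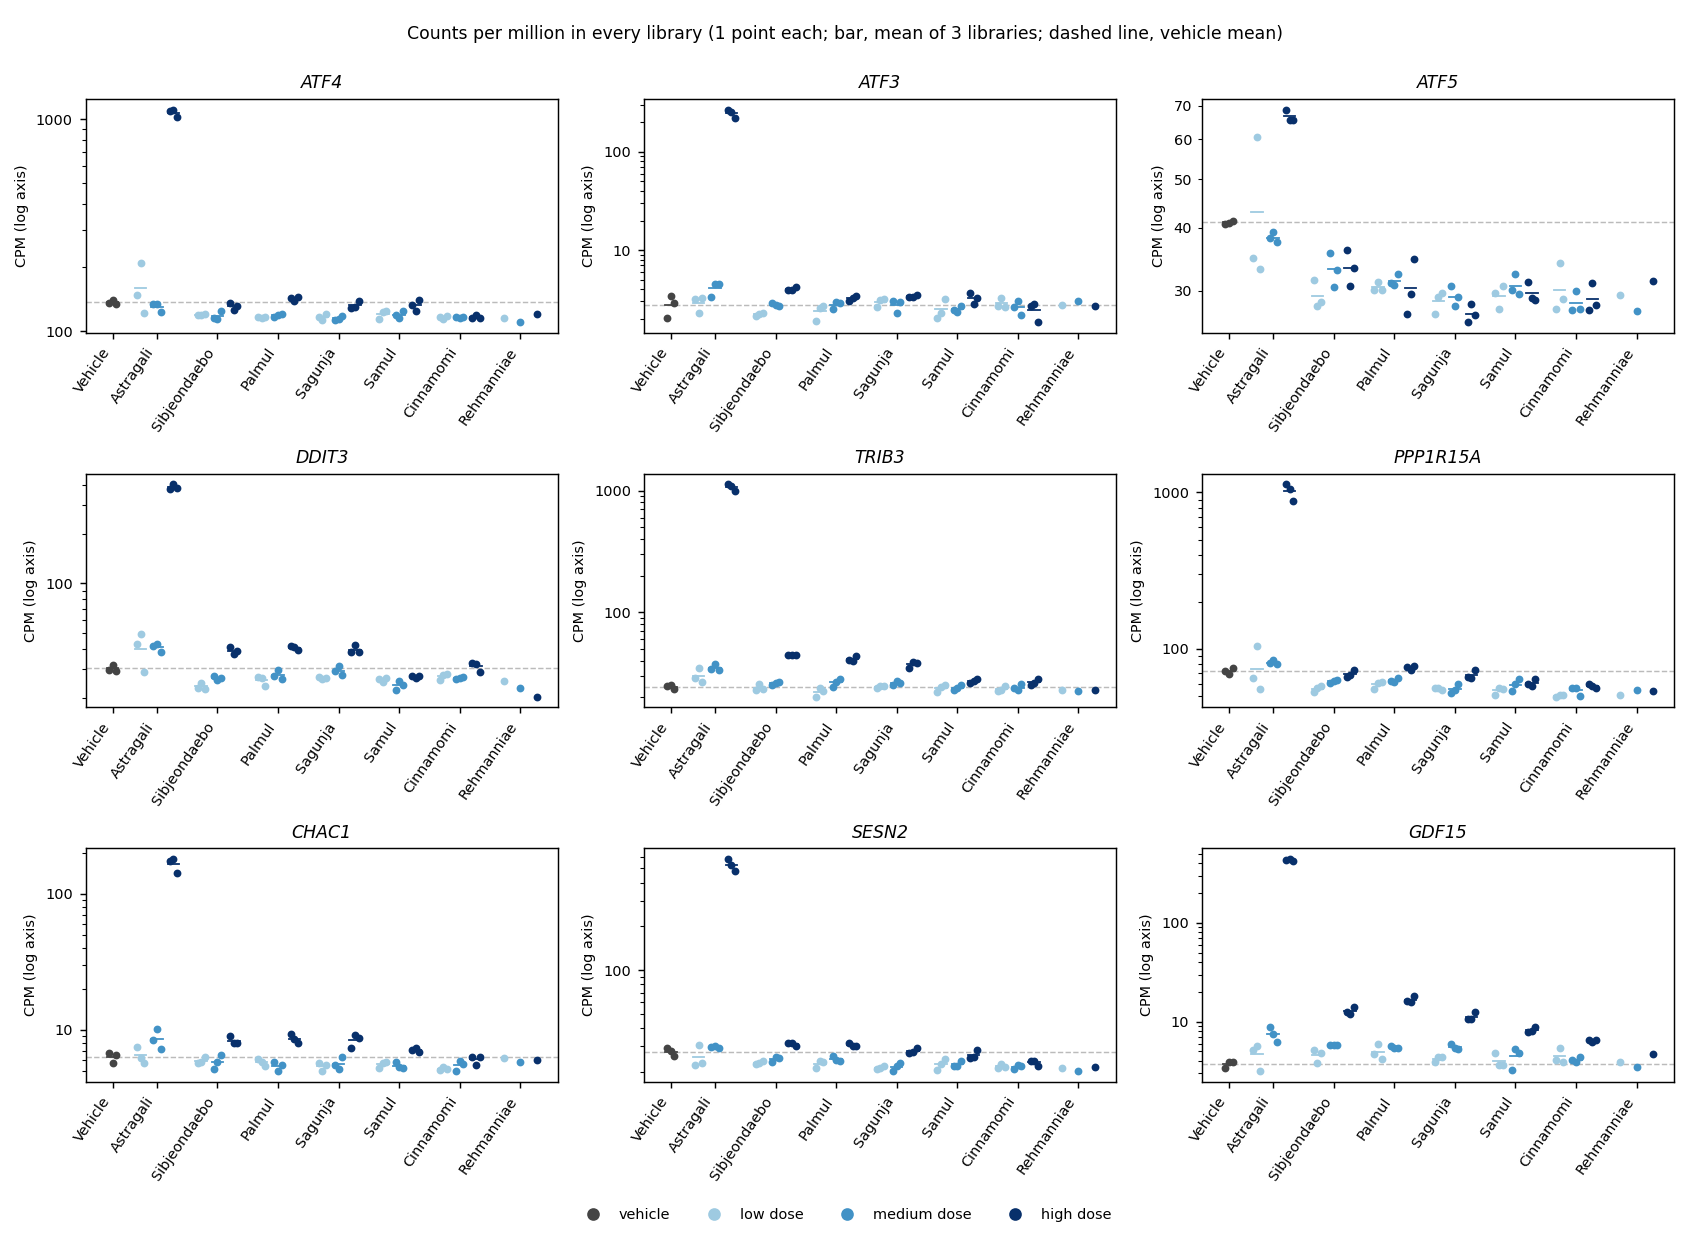
CPM (log axis) of the 9 genes in each of the 60 libraries, with vehicle at the left and the low, medium and high dose of each extract from left to right. The 3 high-dose Astragali libraries stand above all others for every gene, GDF15 is also above the vehicle at the high dose of the other 5 replicated extracts, and 1 low-dose Astragali library stands above its group for ATF4, ATF5 and PPP1R15A.

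The rise with Astragali lay almost wholly between the medium and the high dose. All 9 genes were higher at the high than at the medium dose, where 32.6% of all genes were higher, with log2 changes from 0.80 for ATF5 to 5.92 for ATF3. GDF15 had 433, 443 and 422 CPM at the high and 8.87, 7.48 and 6.29 CPM at the medium dose, and TRIB3 had 1125, 1083 and 1002 CPM at the high and 34.0, 37.3 and 33.7 CPM at the medium dose. Against the vehicle, 5 of 9 genes were higher at the medium dose, where 7.75% of all genes were: GDF15 (log2 1.02, edgeR adjusted p = 2.5e-06), ATF3 (0.56, adjusted p = 0.0105), TRIB3 (0.53, adjusted p = 3.27e-07), DDIT3 (0.43, adjusted p = 0.000459) and CHAC1 (0.43, adjusted p = 0.00394). The ATF3 call was lost without vehicle replicate 1 (log2 0.37, edgeR adjusted p = 0.153) or without Astragali medium replicate 2 (adjusted p = 0.0578) or 3 (0.0721), and the CHAC1 call without medium replicate 2 (0.0802); over all alternatives the adjusted p ran from 0.00325 to 0.153 for ATF3 and from 0.000867 to 0.0802 for CHAC1. ATF4 itself had 134, 134 and 123.5 CPM at the medium dose, with a log2 difference from the vehicle of -0.069 (edgeR adjusted p = 0.629).

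The low Astragali dose gave values that depended on single libraries. ATF4 had 148, 209.9 and 122 CPM, ATF5 34.9, 60.8 and 33.2 CPM and PPP1R15A 65.1, 104 and 55.2 CPM in its 3 libraries. Replicate 2 stood apart from the others for all of these. Against the vehicle, ATF4 (log2 0.22), DDIT3 (0.40) and TRIB3 (0.30) were called higher at the low dose, 3 of 9 genes where 21.6% of all genes were higher. With replicate 3 as the only low-dose library, taken to vary like the other groups, ATF4 had -0.15, DDIT3 -0.068 and TRIB3 0.14 on the log2 scale, and none of them was called. Of the 9 genes, 5 (GDF15, ATF3, CHAC1, SESN2 and TRIB3) were higher and 1, ATF4, was lower at the medium than at the low dose (background 18.9% higher and 22.5% lower), but none of these 6 was called when the Astragali groups compared were fitted alone (edgeR adjusted p = 0.513 to 0.565). The fall of ATF4 (-0.29) was not seen without low replicate 2 (-0.041, edgeR adjusted p = 0.61), whereas GDF15 rose by 0.72 with all 3 low-dose libraries and by 1.27 with replicate 3 alone. With replicate 3 alone the other differences were 0.57 for CHAC1, 0.39 for TRIB3 and 0.36 for SESN2, all still called, 0.34 for ATF3 (adjusted p = 0.426) and 0.089 for ATF4 (0.422), neither called, and DDIT3 (0.51) and PPP1R15A (0.56) were then called higher. The change per 5-fold step of dose, taken as the log2 difference of high and low doses divided by the number of steps, was positive and called for all 9 genes (31.3% of all genes rose). It was 3.28 (SE 0.071) for GDF15, 3.20 (SE 0.070) for ATF3, 2.58 (SE 0.039) for TRIB3 and 0.32 (SE 0.056) for ATF5. With replicate 3 alone at the low dose these became 3.54, 3.13, 2.66 and 0.49, all still called. Fitted on the Astragali libraries being compared alone, the ATF5 trend missed the threshold (edgeR adjusted p = 0.0574; as low as 2.85e-15 under the other alternatives).

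The other 5 replicated extracts moved the genes far less than the high Astragali dose did. Rises against the vehicle were called mostly at 500 µg/mL, whereas levels below the vehicle were called at all 3 doses. All comparisons with the vehicle share its 3 libraries. Against the vehicle, Sibjeondaebo-tang at the high dose had 5 of 9 genes higher and 1 lower (background 11.2% higher and 11.9% lower). Palmul-tang and Sagunja-tang each had 4 higher and 1 lower (backgrounds 10% and 10.2% for Palmul-tang, 11.2% and 11.6% for Sagunja-tang). Samul-tang had 1 higher and 1 lower (background 9.37% and 10.3%), and Cinnamomi Cortex had 1 higher and 4 lower (background 7.7% and 8.56%). The 5 Cinnamomi Cortex calls became 3 with no filter on low counts and 2 to 3 when any 1 of the 6 libraries was left out: ATF4 and PPP1R15A were lost each time and SESN2 in 4 of 6 fits. GDF15 was the gene that rose with all 5 of these extracts, and ATF5 the gene that fell with all 5. TRIB3, DDIT3 and CHAC1 rose with Sibjeondaebo-tang, Palmul-tang and Sagunja-tang. ATF4 RNA rose with none of the 5: its log2 difference from the vehicle at the high dose was between -0.23 (Cinnamomi Cortex) and 0.062 (Palmul-tang).

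GDF15 levels at 500 µg/mL differed between the extracts. Palmul-tang had 16.3, 15.9 and 18.03 CPM, Sibjeondaebo-tang 12.6, 11.9 and 14.0 CPM, Sagunja-tang 10.6, 10.6 and 12.5 CPM, Samul-tang 7.92, 8.11 and 8.72 CPM and Cinnamomi Cortex 6.53, 6.28 and 6.52 CPM, against 3.43, 3.87 and 3.87 CPM in the vehicle. Each library of all 5 was above all vehicle libraries; among neighbours in the order the libraries of Sibjeondaebo-tang and Sagunja-tang overlapped and the other neighbours did not. The log2 changes against the vehicle were 2.17 (SE 0.14, edgeR adjusted p = 9.58e-16) for Palmul-tang, 1.78 (SE 0.15, adjusted p = 5.09e-13) for Sibjeondaebo-tang, 1.60 (SE 0.15) for Sagunja-tang, 1.15 (SE 0.15) for Samul-tang and 0.79 (SE 0.16, adjusted p = 0.00024) for Cinnamomi Cortex. At 100 µg/mL GDF15 was also called higher with Sibjeondaebo-tang (0.64), Palmul-tang (0.57) and Sagunja-tang (0.58); at 20 µg/mL its differences from the vehicle were 0.10 to 0.41 and none was called.

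TRIB3 had 44.2, 44.5 and 44.3 CPM with Sibjeondaebo-tang at the high dose, 40.3, 39.8 and 43.4 CPM with Palmul-tang and 34.8, 38.7 and 38.0 CPM with Sagunja-tang, against 24.5, 25.0 and 23.4 CPM in the vehicle. The log2 changes were 0.87, 0.76 and 0.61 (SE 0.071 each). TRIB3 had 26.1, 27.1 and 28.0 CPM with Samul-tang (log2 0.15, edgeR adjusted p = 0.13) and 25.1, 26.2 and 28.3 CPM with Cinnamomi Cortex (log2 0.13, adjusted p = 0.25), neither called. DDIT3 had 41.2, 36.9 and 38.5 CPM with Sibjeondaebo-tang, 41.3, 40.9 and 39.4 CPM with Palmul-tang and 38.1, 42.0 and 38.1 CPM with Sagunja-tang, against 29.5, 32.0 and 29.4 CPM in the vehicle, log2 changes of 0.36, 0.42 and 0.38 (edgeR adjusted p = 0.00278, 0.000492 and 0.00147). In the same 3 comparisons MARS1, on the other strand, had 0.16, 0.13 and 0.057, and MBD6 -0.39, -0.36 and -0.42. CHAC1 had 8.94, 8.03 and 7.95 CPM with Sibjeondaebo-tang, 9.34, 8.51 and 7.92 CPM with Palmul-tang and 7.37, 9.20 and 8.67 CPM with Sagunja-tang, against 6.77, 5.72 and 6.49 CPM in the vehicle, log2 changes of 0.39, 0.44 and 0.41. All libraries of the 3 extracts were above those of the vehicle for TRIB3, DDIT3 and CHAC1. ATF3 rose with Sibjeondaebo-tang alone among the 5 (3.96, 3.91 and 4.24 CPM against 2.02, 3.40 and 2.92 CPM, log2 0.53, SE 0.16, edgeR adjusted p = 0.0114), a call that was lost without vehicle replicate 1 (log2 0.35, adjusted p = 0.148; 0.00362 to 0.148 over all alternatives). The CHAC1 call for Sibjeondaebo-tang was lost without vehicle replicate 2 (adjusted p = 0.0546; 0.000788 to 0.0546 over all alternatives).

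ATF5, by contrast, was lower than in the vehicle whatever the dose. Its 45 libraries under the 5 extracts ranged from 26.0 to 36.1 CPM, all below the vehicle's 40.7, 40.9 and 41.3 CPM. The log2 differences were between -0.60 (Sagunja-tang, high) and -0.30 (Sibjeondaebo-tang, high), and 14 of 15 were called; the exception was Sibjeondaebo-tang at the medium dose (-0.31, edgeR adjusted p = 0.0937). The high-dose Sibjeondaebo-tang call (adjusted p = 0.0462) was lost without any 1 vehicle library (0.0982 to 0.11) and without high replicate 2 or 3 (0.198 and 0.118). NUP62 on the opposite strand was lower as well, with high-dose differences from -0.28 to -0.21. ATF5 was not alone in this: of the same 45 libraries, 40 were below every vehicle library for PPP1R15A, 39 for ATF4 and 34 for SESN2, whereas 41 were above every vehicle library for GDF15. At the medium dose, calls against the vehicle numbered 1 of 9 with Sibjeondaebo-tang (background 5.76% in either direction), 2 with Palmul-tang (10.2%), 5 with Sagunja-tang (13.5%), 3 with Samul-tang (12.1%) and 4 with Cinnamomi Cortex (13%), and apart from GDF15 all were lower. At the low dose they numbered 4 with Sibjeondaebo-tang (9.61%), 2 with Palmul-tang (9.84%), 4 with Sagunja-tang (14.1%), 3 with Samul-tang (11.3%) and 4 with Cinnamomi Cortex (13.2%), all lower. PPP1R15A was lower than in the vehicle at the low dose of 4 extracts, from -0.52 (Cinnamomi Cortex) to -0.38 (Sagunja-tang), with -0.29 for Palmul-tang (edgeR adjusted p = 0.0806). SESN2 was lower at the low dose of all 5, from -0.37 to -0.26. ATF4 at the low dose had differences from -0.24 to -0.18, called for Cinnamomi Cortex and Sagunja-tang without a replicate block and for neither with one (edgeR adjusted p = 0.0532 and 0.0539).

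**Figure D2:**
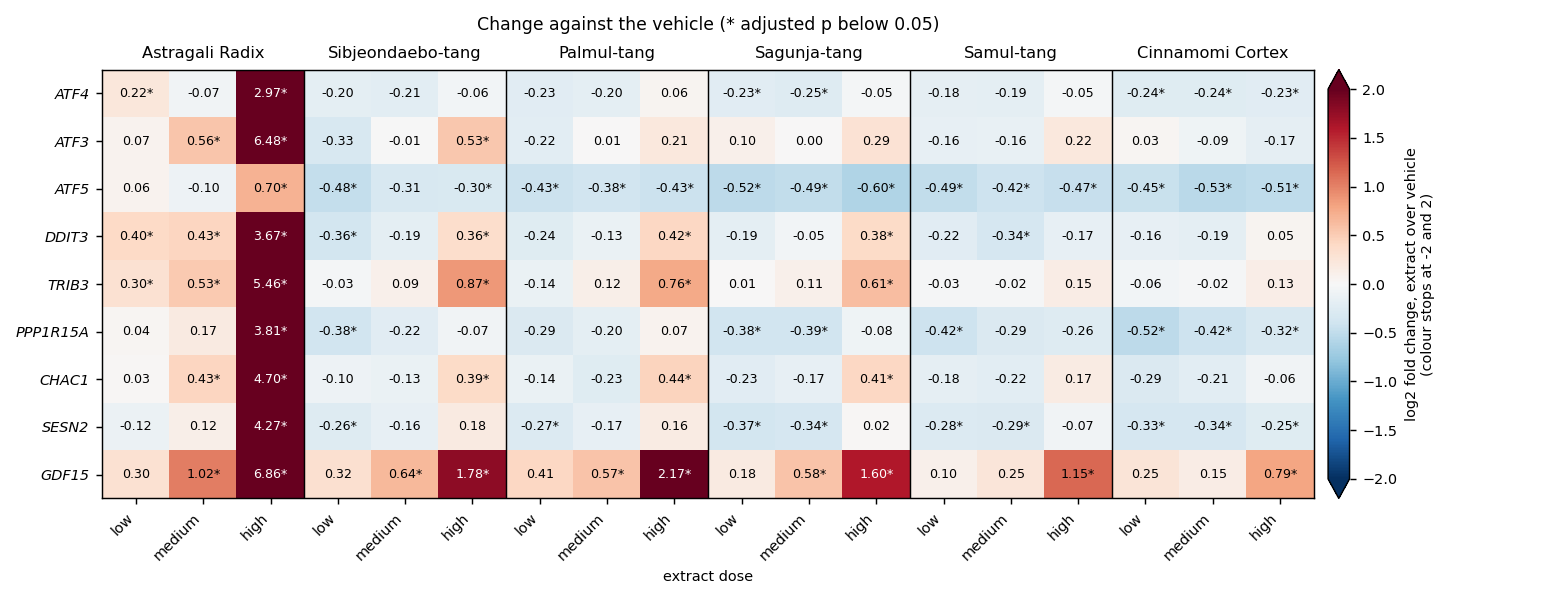
Log2 fold change of each extract dose over the vehicle for the 9 genes (rows) and 18 groups (columns), with an asterisk where edgeR's adjusted p was below 0.05 and colour limited to -2 and 2. The high-dose Astragali column is red throughout, the GDF15 row is red at every high dose, and the ATF5 row is blue for the 5 other extracts at all doses.

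Within each extract the 3 doses were compared directly, which leaves the vehicle out. With Sibjeondaebo-tang 7 of 9 genes rose with dose, where 10.6% of all genes rose, and with Palmul-tang also 7 of 9, where 1.92% did. Sagunja-tang had 5 of 9 (background 2.06%), Samul-tang 1 of 9 (background 0.747%) and Cinnamomi Cortex 0 of 9 (background 0.243%). In edgeR 4 of 9 genes had an unadjusted p below 0.05 with Cinnamomi Cortex (GDF15, TRIB3, DDIT3 and CHAC1), and DESeq2 called 1, GDF15. With Samul-tang 5 of 9 genes had an unadjusted p below 0.05 in edgeR (GDF15, TRIB3, ATF3, CHAC1 and SESN2), and DESeq2 called 1, GDF15. Every high-dose library was above every low-dose library for 7 of 9 genes with Samul-tang and 5 of 9 with Cinnamomi Cortex. Here and below, counts of separated libraries, at an unadjusted p or in DESeq2 have no share over all genes beside them. They cannot be set against the backgrounds, which are at edgeR's adjusted p. None of the 9 genes fell with dose of any of these extracts. GDF15, TRIB3, DDIT3, CHAC1 and SESN2 rose with Sibjeondaebo-tang, Palmul-tang and Sagunja-tang alike, PPP1R15A with the first pair, ATF3 with Sibjeondaebo-tang and ATF4 with Palmul-tang. The median change per 5-fold step of dose over the 9 genes was 0.24 on the log2 scale for Sibjeondaebo-tang, 0.22 for Palmul-tang, 0.19 for Sagunja-tang, 0.092 for Samul-tang and 0.092 for Cinnamomi Cortex, beside medians over all genes between -0.0042 and 0.0014.

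GDF15 climbed mainly at the last step. With Palmul-tang it had 4.67, 5.97 and 4.21 CPM at 20 µg/mL, 5.69, 5.46 and 5.46 CPM at 100 µg/mL and 16.3, 15.9 and 18.03 CPM at 500 µg/mL. With Sibjeondaebo-tang the same doses gave 5.21, 3.80 and 4.83 CPM, 5.86, 5.81 and 5.76 CPM and 12.6, 11.9 and 14.0 CPM. The high-dose libraries were above all libraries of the lower doses in both extracts. From low to high dose GDF15 changed 3.37-fold with Palmul-tang (log2 per step 0.88, SE 0.066, edgeR adjusted p = 1.37e-13), 2.76-fold with Sibjeondaebo-tang (0.73, SE 0.070, adjusted p = 4.9e-11), 2.67-fold with Sagunja-tang (0.71, SE 0.069, adjusted p = 3.66e-10) and 2.06-fold with Samul-tang (0.52, SE 0.073, adjusted p = 4.36e-06). Cinnamomi Cortex gave 1.45-fold (0.27, SE 0.074, adjusted p = 0.124), which missed the threshold; it passed when all Astragali libraries were left out of the fit (adjusted p = 0.00905; 0.00427 to 0.577 over all alternatives for GDF15).

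TRIB3 followed with smaller changes. With Sibjeondaebo-tang it had 22.7, 25.4 and 23.2 CPM at the low, 25.1, 26.2 and 26.5 CPM at the medium and 44.2, 44.5 and 44.3 CPM at the high dose. Its change per step was 0.45 (SE 0.035, edgeR adjusted p = 2.13e-13) with Sibjeondaebo-tang, 0.45 (SE 0.035, adjusted p = 4.51e-13) with Palmul-tang, 0.30 (SE 0.035, adjusted p = 3.47e-08) with Sagunja-tang and 0.092 (adjusted p = 0.307) with Samul-tang. DDIT3 had 23.0, 24.9 and 22.9 CPM, 27.4, 25.8 and 26.5 CPM and 41.2, 36.9 and 38.5 CPM at the low, medium and high dose of Sibjeondaebo-tang, so that it stood below the vehicle at the low dose and above it at the high dose. Its change per step was 0.36 with Sibjeondaebo-tang (edgeR adjusted p = 7.55e-08), 0.33 with Palmul-tang (1.03e-06), 0.28 with Sagunja-tang (2.68e-05) and 0.027 with Samul-tang (1). CHAC1 rose by 0.24, 0.29 and 0.32 per step with Sibjeondaebo-tang, Palmul-tang and Sagunja-tang (edgeR adjusted p = 0.000967, 0.000249 and 6.2e-05), and SESN2 by 0.22, 0.21 and 0.19 (4.93e-05, 0.00014 and 0.00078). SESN2 had 22.5, 22.9 and 23.6 CPM at the low, 23.5, 25.3 and 24.7 CPM at the medium and 31.8, 31.4 and 29.8 CPM at the high dose of Sibjeondaebo-tang, against the vehicle's 29.2, 27.6 and 25.5 CPM; the high-dose level was not called different from the vehicle (log2 0.18, adjusted p = 0.0931).

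The remaining calls were less steady. PPP1R15A rose by 0.16 per step with Sibjeondaebo-tang (edgeR adjusted p = 0.0289) and 0.18 with Palmul-tang (0.0463). The Palmul-tang call was lost when any 1 of its high-dose or low-dose libraries was left out (adjusted p = 0.0764 to 0.239), and the Sibjeondaebo-tang call without high replicate 3 or low replicate 1 or 2 (0.0598 to 0.127). ATF4 rose with Palmul-tang by 0.15 per step (116.5, 116 and 117 CPM at the low, 117, 119 and 121 CPM at the medium and 144, 139 and 146 CPM at the high dose; edgeR adjusted p = 0.0263), a call lost in 5 of 6 fits without 1 library (0.0774 to 0.101). For the other extracts the ATF4 change per step was 0.068 (Sibjeondaebo-tang, edgeR adjusted p = 0.246), 0.094 (Sagunja-tang, 0.271), 0.069 (Samul-tang, 0.746) and 0.0024 (Cinnamomi Cortex, 1). ATF3 rose with Sibjeondaebo-tang by 0.43 per step (SE 0.081, edgeR adjusted p = 0.000113), with 2.13, 2.23 and 2.31 CPM at the low, 2.88, 2.74 and 2.71 CPM at the medium and 3.96, 3.91 and 4.24 CPM at the high dose. ATF5 had changes per step between -0.042 (Sagunja-tang) and 0.092 (Sibjeondaebo-tang), none called.

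**Figure D3:**
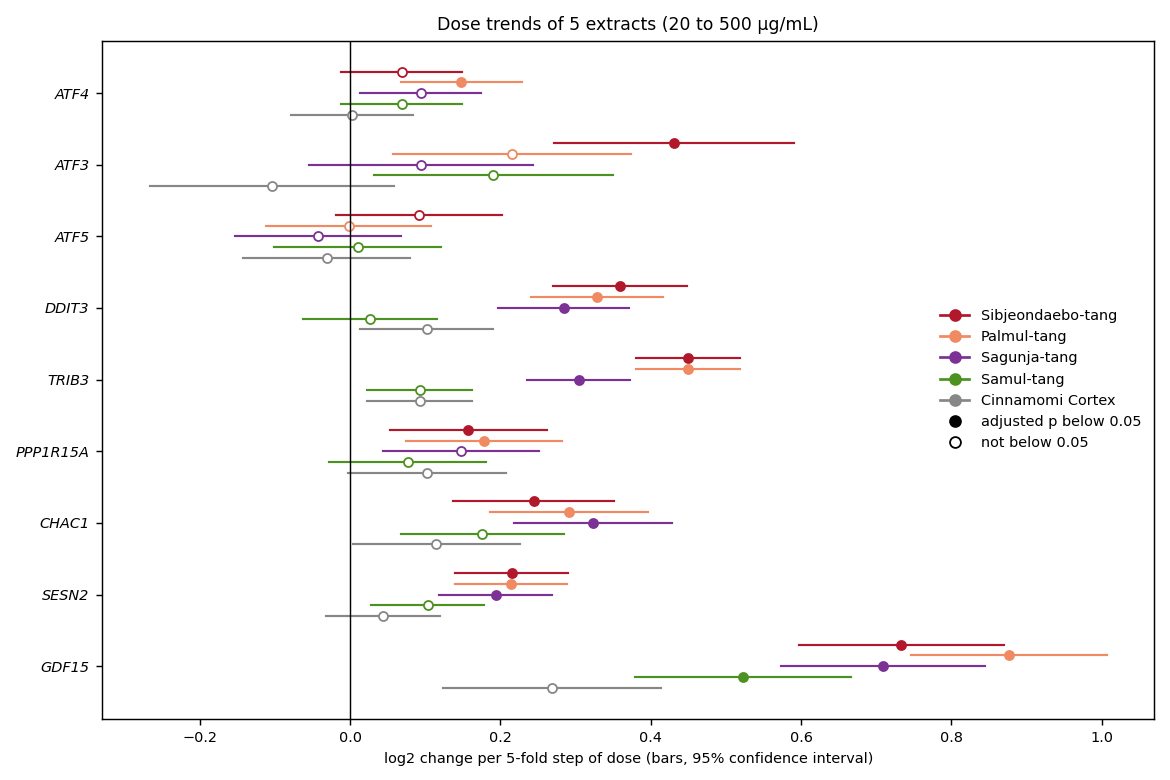
Log2 change per 5-fold step of dose (20 to 500 µg/mL) with its 95% confidence interval for the 9 genes and 5 extracts; filled points were called at an adjusted p below 0.05. GDF15 lies farthest to the right for each extract, TRIB3 and DDIT3 are filled for Sibjeondaebo-tang, Palmul-tang and Sagunja-tang, and no ATF5 point is filled.

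As with Astragali Radix, the steps were unequal, for the 9 genes and in calls over all genes tested. The median log2 change of the 9 genes ran from -0.0057 (Cinnamomi Cortex) to 0.16 (Sibjeondaebo-tang) between low and medium dose. Between medium and high dose it ran from 0.097 to 0.52 for the same extracts. Between the low and the medium dose none of the 9 genes was called with any of the 5 extracts (backgrounds 0.232% for Sibjeondaebo-tang, 0.0226% for Cinnamomi Cortex, 0.00566% for Samul-tang and 0% for Palmul-tang and Sagunja-tang, in edgeR). Counts of 0 of 9 are near these shares and are no result about the 9 genes in particular. At an unadjusted p below 0.05 there was 1 gene each with Sibjeondaebo-tang (GDF15), Sagunja-tang (GDF15) and Palmul-tang (TRIB3). There were 0 with the other 2, and DESeq2 called 0. Between the medium and the high dose 6 of 9 rose with Sibjeondaebo-tang (background 2.45%), 5 with Palmul-tang (1.27%), 5 with Sagunja-tang (0.764%), 1 with Samul-tang (0.339%) and 0 with Cinnamomi Cortex (0.0735%), where edgeR gave 3 genes at an unadjusted p below 0.05 and DESeq2 called GDF15. GDF15 rose at this step with the first 4, by 1.60 (Palmul-tang), 1.14 (Sibjeondaebo-tang), 1.02 (Sagunja-tang) and 0.90 (Samul-tang) on the log2 scale, and TRIB3 with the first 3, by 0.77 (Sibjeondaebo-tang), 0.64 (Palmul-tang) and 0.51 (Sagunja-tang).

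Pairs of extracts were set side by side at the shared dose of 500 µg/mL. The pairs were a formula and its parts: Sibjeondaebo-tang with Palmul-tang and with Cinnamomi Cortex, Palmul-tang with Sagunja-tang and with Samul-tang, and Sagunja-tang with Samul-tang. Only Sibjeondaebo-tang with Palmul-tang and Sagunja-tang with Samul-tang share a sample code. Samul-tang had lower levels than Palmul-tang and Sagunja-tang for GDF15, TRIB3 and DDIT3. Palmul-tang was higher than Samul-tang for 3 of 9 genes (background 0.916%): GDF15 by 1.02 (SE 0.13, edgeR adjusted p = 5.25e-07), TRIB3 by 0.61 (SE 0.070, 1.12e-07) and DDIT3 by 0.59 (SE 0.089, 3.47e-05). Sagunja-tang was higher than Samul-tang for the same 3 genes (background 2.47%), with DDIT3 higher by 0.55 (SE 0.089, edgeR adjusted p = 3.89e-05), TRIB3 by 0.46 (SE 0.070, 1.26e-05) and GDF15 by 0.45 (SE 0.13, 0.0265). The GDF15 call was lost in 4 of 6 fits without 1 library (adjusted p = 0.0506 to 0.21). DDIT3 had 38.1, 42.0 and 38.1 CPM with Sagunja-tang and 27.1, 26.6 and 27.1 CPM with Samul-tang, with no overlap.

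Palmul-tang and Sagunja-tang differed for GDF15 alone among the 9 (0.57, SE 0.12, edgeR adjusted p = 0.0053; background 0.39%), a call lost in 3 of 6 fits without 1 library (0.0536 to 0.0607). Sibjeondaebo-tang and Palmul-tang differed for 0 of 9 genes in edgeR (background 5.45%), with 2 at an unadjusted p below 0.05, GDF15 and ATF3, of which DESeq2 called GDF15. GDF15 was lower with Sibjeondaebo-tang by a margin that just missed it (log2 -0.38, 95% interval -0.62 to -0.14, edgeR adjusted p = 0.0526), and the difference was called with the Astragali libraries left out of the fit (adjusted p = 0.00336; 0.00166 to 0.197 over all alternatives). TRIB3 differed by 0.11 (95% interval -0.029 to 0.24) and DDIT3 by -0.063 (-0.24 to 0.11). Sibjeondaebo-tang was higher than Cinnamomi Cortex for 6 of 9 genes (background 6.21%): GDF15 (0.99), TRIB3 (0.74), ATF3 (0.71), CHAC1 (0.45), SESN2 (0.42) and DDIT3 (0.31, edgeR adjusted p = 0.0144).

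**Figure D4:**
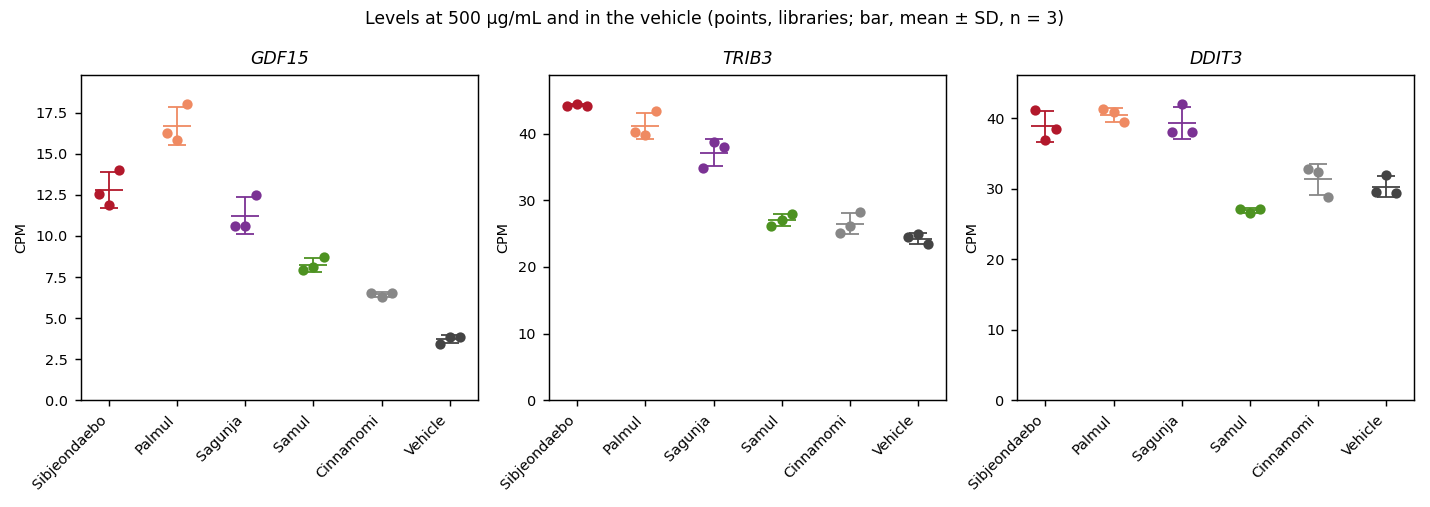
CPM of GDF15, TRIB3 and DDIT3 at 500 µg/mL of 5 extracts and in the vehicle; points are libraries, and bars show the mean with the SD (n = 3). GDF15 is highest with Palmul-tang (16.7 ± 1.16 CPM) and among the extracts lowest with Cinnamomi Cortex (6.44 ± 0.145 CPM), with the vehicle at 3.72 ± 0.256 CPM, whereas Samul-tang and Cinnamomi Cortex lie near the vehicle for TRIB3.

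The same pairs were compared for their change with dose, a contrast in which differences between sample codes cancel. Sibjeondaebo-tang rose more steeply than Cinnamomi Cortex for ATF3, GDF15, TRIB3, DDIT3 and SESN2, 5 of 9 genes (background 2.94%). Palmul-tang rose more steeply than Samul-tang for TRIB3 and DDIT3, 2 of 9 (background 0.0509%), and so did Sagunja-tang (background 0.645%). For GDF15 the difference in steepness was 0.35 between Palmul-tang and Samul-tang (95% interval 0.16 to 0.55, edgeR adjusted p = 0.232) and 0.19 between Sagunja-tang and Samul-tang (-0.014 to 0.39, adjusted p = 0.637), neither called. Sibjeondaebo-tang against Palmul-tang and Palmul-tang against Sagunja-tang gave 0 of 9 in edgeR and in DESeq2 (backgrounds 1.06% and 0.238%; 0 and 1, TRIB3, at an unadjusted p below 0.05), with differences for GDF15 of -0.14 (-0.33 to 0.047) and 0.17 (-0.022 to 0.36).

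Rehmanniae Radix Preparata, with 1 library at each dose, has no replicate check and was not tested. GDF15 had 3.95, 3.49 and 4.67 CPM at 20, 100 and 500 µg/mL, and DDIT3 had 25.3, 23.0 and 20.4 CPM. The DDIT3 values lay below every vehicle library at all doses and were lower at each higher dose, whereas GDF15 lay inside the vehicle range at 100 µg/mL and above it at 20 and 500 µg/mL. ATF5 was lower than the vehicle mean by 0.48, 0.59 and 0.39 on the log2 scale at 20, 100 and 500 µg/mL.

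Genes around the 9 were read from lists of the pathway; over all genes 31.3% rose and 38.7% fell in the dose trend of Astragali Radix, against which each count stands. In the dose trend of Astragali Radix, genes for amino acid supply rose: 12 of 13 genes of amino acid and one-carbon synthesis were higher and 1 lower, and 9 of 9 amino acid transporters with enough reads were higher, with median changes per step of 0.62 and 1.00 beside -0.06 over all genes. ASNS, which makes asparagine, rose by 1.47 (SE 0.027), PSAT1 of serine synthesis by 1.24 and SLC3A2, the heavy chain of amino acid exchangers, by 1.69. Of 20 aminoacyl-tRNA synthetases 13 rose and 4 fell (median 0.39), GARS1 by 1.34 per step. All 18 other tested outputs of ATF4 and CHOP rose (median 1.06), among them the death receptor TNFRSF10B (1.18) and the autophagy gene MAP1LC3B (1.59). Among bZIP partners and co-regulators 11 of 13 rose and 1 fell (median 0.67), with NUPR1 at 1.84 and CEBPG at 1.06; NUPR1 and CEBPG are in both of the last 2 lists. Of 17 genes for eIF2 kinases, eIF2 and eIF2B, which lie upstream of ATF4, 5 rose and 9 fell (median -0.17), where 31.3% of all genes rose and 38.7% fell. EIF2AK3, the kinase of endoplasmic reticulum stress, rose by 0.65, and DELE1, which relays mitochondrial stress, fell by 0.27.

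Other stress programmes moved in the same Astragali contrast. All 14 NRF2 targets rose (median 1.01; HMOX1 by 2.50, SRXN1 by 1.61), and so did all 10 heat shock genes (median 1.44), with HSPA6 at 4.73 and HSPA1A at 2.48, a gene nearly identical to a neighbouring copy so that its reads may be shared. Of 15 genes of the endoplasmic reticulum unfolded protein response 11 rose and 3 fell (median 0.23), with DNAJB9 at 2.06 and HERPUD1 at 1.58. Mitochondrial proteostasis had 7 of 10 higher and 1 lower (median 0.19). Of p53 targets 6 of 15 were higher and 8 lower (median -0.081), where 31.3% of all genes rose and 38.7% fell, with CDKN1A, the cell cycle inhibitor, rising by 2.77. Of the 5 listed paralogs of TRIB3, SESN2 and CHAC1 4 rose and 1 fell (median 0.36), with TRIB1 rising by 1.06 and SESN3 by 0.80. Of 8 tested markers of other cell types 3 rose and 4 fell. The summed level of all 11 markers was 1990 to 2150 CPM at the high, 4930 to 5190 CPM at the medium and 5920 to 18900 CPM at the low Astragali dose, and 6050 to 6240 CPM in the vehicle, nearly all of it from COL1A1 and COL1A2; without these collagen genes it was 247 to 255, 209 to 230 and 124 to 212 CPM at the high, medium and low dose, and 234 to 250 CPM in the vehicle. The part of these markers in the results was not tested.

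With the other extracts fewer genes of the lists were called, as over all genes, where 10.6% rose with Sibjeondaebo-tang, 1.92% with Palmul-tang, 2.06% with Sagunja-tang, 0.747% with Samul-tang and 0.243% with Cinnamomi Cortex. NRF2 targets rose for 13 of 14 genes with Sibjeondaebo-tang, 13 with Palmul-tang, 12 with Sagunja-tang, 12 with Samul-tang and 4 with Cinnamomi Cortex, with median changes per step of 0.42, 0.26, 0.22, 0.22 and 0.085 against 1.01 with Astragali Radix. With Samul-tang, where GDF15 was the 1 member called in the main fit, the median of the 9 genes was 0.092 per step, beside -0.00064 over all genes. Amino acid and one-carbon synthesis had 8 of 13 higher with Sibjeondaebo-tang, 3 with Palmul-tang, 5 with Sagunja-tang (and 1 lower) and 1 with Samul-tang, and the synthetases 9, 7, 5 and 0 of 20. With Sibjeondaebo-tang ASNS rose by 0.37 per step (SE 0.026, edgeR adjusted p = 3.98e-15), SLC3A2 by 0.40, SQSTM1, an autophagy receptor that is also an NRF2 target, by 0.54 and HMOX1, heme oxygenase, by 1.55. Heat shock genes, 10 of 10 with Astragali Radix, had 1 of 10 higher with Sibjeondaebo-tang and none with the other 4, and the unfolded protein response had 6 of 15 higher and 1 lower with Sibjeondaebo-tang, 2 higher with Palmul-tang and 1 with Sagunja-tang. Markers of other cell types had 1 higher and 2 lower of 8 with Sibjeondaebo-tang. The endothelial marker PECAM1 rose by 0.39 from a level near the floor (median over all libraries 0.698 CPM). The leukocyte marker PTPRC fell by 0.33 and the fibroblast marker DCN fell by 0.14 (medians 9.81 and 15.1 CPM). The summed level was 4950 to 5200 CPM at the high and 6280 to 6400 CPM at the low dose. EPCAM, CDH1 and CDH5 of epithelium and endothelium were at or near 0 in every library (medians 0.0362, 0.0313 and 0 CPM), and neuronal RBFOX3 had a median of 0.245 CPM. The immune marker CD68 and the neuronal marker SYT1 were present, with medians of 167 and 36.4 CPM.

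**Figure D5:**
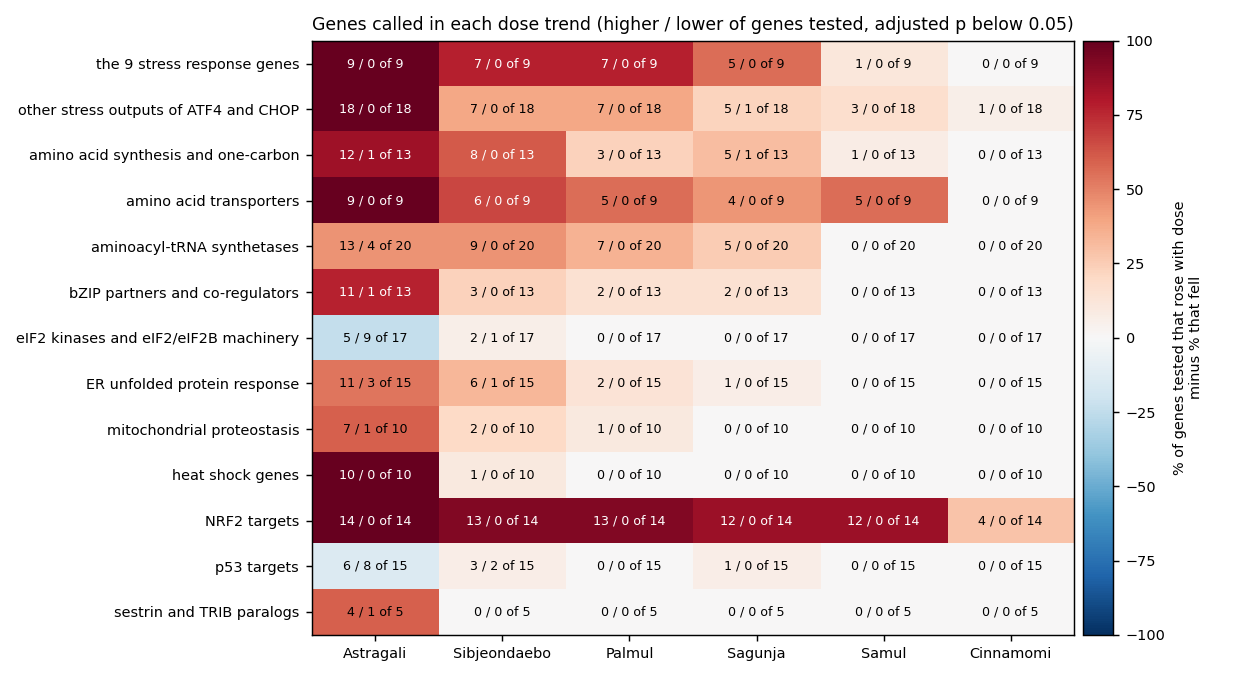
Number of genes higher and lower, of those tested, in each dose trend for the 9 genes and for the pathway lists (rows) and 6 extracts (columns); colour is the percentage that rose minus the percentage that fell. NRF2 targets keep 12 to 14 of 14 in every column but Cinnamomi Cortex, whereas heat shock genes have 10 of 10 in the Astragali column and at most 1 in any other.

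How alike the 9 genes were across groups was described by Pearson correlations of group means of log2 CPM. Over the 16 groups outside Astragali Radix, which share the vehicle and 1 scaling, TRIB3 and GDF15 had r = 0.937, TRIB3 and DDIT3 0.916, CHAC1 and SESN2 0.913 and SESN2 and PPP1R15A 0.91. ATF5 stood apart, with r between -0.141 and 0.495 with the other 8. The genes most like each member over these groups, among those with a mean of at least 5 CPM, were SQSTM1 (r = 0.978), ATP6V1B2 (0.965) and AIFM2 (0.964) for GDF15, PIP4K2C (0.977), OSGIN1 (0.977) and DGKG (0.973) for TRIB3, and DHRS7B (0.947), PSAT1 (0.923) and ALG5 (0.92) for DDIT3. For CHAC1 they were XPOT (0.944), GCLC (0.944) and OSGIN1 (0.937), for SESN2 RAPGEF1 (0.964), AMPD3 (0.963) and YARS1 (0.959), and for PPP1R15A ICAM1 (0.962), PLEKHM1 (0.939) and CAMTA2 (0.934). ATF4 had SESN2 (0.907), CCDC149 (0.906) and TNFRSF10B (0.898), ATF3 had PIP4P1 (0.897), KEAP1 (0.895) and CNPPD1 (0.885), and ATF5 had MIDN (0.97), SNRPA (0.968) and SEPTIN9 (0.952). Over all 19 groups, the Astragali doses included, the closest genes were CHAC1 for TRIB3 (0.995), SESN2 for CHAC1 (0.996) and for PPP1R15A (0.996), and ASNS (0.991) after GNPDA1 (0.994) for GDF15. They were CTBP2 (0.997) for ATF4, BTG1 (0.997) for ATF3, TNIP1 (0.988) for ATF5 and GARS1 (0.998) for SESN2. DDIT3 had PELO (0.99) after a gene without a symbol (0.991). These values include the high Astragali dose, where 68.2% of all genes tested were called against the vehicle in either direction.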

How the data were processed

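Per the submitters' processing notes, reads were checked with FastQC 0.11.9, trimmed with Trim Galore 0.6.5, aligned with STAR 2.7.3a to GRCh38 and counted with RSEM 1.3.3; the annotation release and strand setting are not given in the sources used here. Per the labels, libraries came from a strand-keeping kit and paired-end sequencing. The authors deposited RSEM's expected counts per gene, which need not be whole; 60 columns were used and 219 other columns were not. Of the values, 90.848% were whole within 1e-9; all were rounded. Depth set the precision: 19793387 to 37152410 counts per library.

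The 57 replicated libraries were fitted together in edgeR 4.0.16 (R 4.3.3) with TMM scaling, filterByExpr, 1 mean per group and the quasi-likelihood F test, with Benjamini-Hochberg adjustment over 17676 genes and calls at an adjusted p below 0.05. SEs were derived from the F statistic, and scaled CPM are descriptive. The steps were tested on simulated counts. Rehmanniae Radix Preparata, with 1 library a dose, was not fitted. Alternatives were DESeq2 1.42.0, its size factors in edgeR, upper-quartile scaling, other filters, a replicate block, the compared groups alone, leaving out each library, and leaving out Astragali libraries. The fit without all Astragali libraries was added after seeing the data. For unscaled totals only log2 values were worked out, and no test was run.

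The 9 genes and the pathway lists were chosen with earlier results of these data known. Named list genes are up to 3 called members with the smallest p in the Astragali Radix and Sibjeondaebo-tang dose trends, a selection of which is given; the 3 genes most alike have the highest Pearson r at a mean of at least 5 CPM. Positions are from GENCODE v29 and promoter sequences from RefSeq, both GRCh38.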

Additional observations from a re-analysis of the deposited data

Results flagged for a closer look

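In 9 cases the change with dose of a gene differed between a pair of extracts by a test of the difference itself, edgeR's quasi-likelihood test of the difference in log2 change per 5-fold step. For Sibjeondaebo-tang minus Cinnamomi Cortex the difference was 0.54 for ATF3 (SE 0.12, edgeR adjusted p = 0.00282), from 0.43 with Sibjeondaebo-tang and -0.10 with Cinnamomi Cortex. In the same pair it was 0.46 for GDF15 (adjusted p = 0.00343), 0.36 for TRIB3 (4.01e-06), 0.26 for DDIT3 (0.00972) and 0.17 for SESN2 (0.0482). ATF3 had 4.04 and 2.47 CPM at the high dose of Sibjeondaebo-tang and Cinnamomi Cortex, and 2.22 and 2.86 CPM at the low dose. The SESN2 call was lost in all 12 fits without 1 library.

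For Palmul-tang minus Samul-tang the difference was 0.36 for TRIB3 (SE 0.050, edgeR adjusted p = 0.000142) and 0.30 for DDIT3 (SE 0.064, adjusted p = 0.0253). For Sagunja-tang minus Samul-tang, which share a sample code, it was 0.26 for DDIT3 (SE 0.064, adjusted p = 0.0242) and 0.21 for TRIB3 (SE 0.050, adjusted p = 0.0163). Samul-tang itself changed by 0.092 for TRIB3 and 0.027 for DDIT3 per step. Without 1 library the DDIT3 call was lost in 9 of 12 fits for Palmul-tang minus Samul-tang and in 7 of 12 for Sagunja-tang minus Samul-tang, and the TRIB3 call in 6 of 12 for the second pair.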

How the results depend on the processing

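All 9 genes were higher at the high Astragali dose than in the vehicle under every alternative run. Upper-quartile scaling moved the log2 change of all genes there by -0.141 and unscaled totals, with which no test was run, by -0.333. Counts of the 9 genes moved by over 1.5 times in the settings that follow. The share of all genes called in each of these fits is not given here. Whether the 9 genes moved more than all genes did cannot be told from these counts. The Cinnamomi Cortex dose trend (0 genes) gave 1 with DESeq2, 1 with no filter, 0 to 1 without 1 library, 2 without Astragali low replicates 1 and 2, 2 on the compared groups alone and 3 without all Astragali libraries. The Samul-tang dose trend (1) gave 4 without Astragali low replicates 1 and 2, 2 on the compared groups alone and 5 without all Astragali libraries. Cinnamomi Cortex at the high dose against the vehicle (5) gave 3 with no filter and 2 to 3 without 1 library, and Samul-tang (2) gave 5 without Astragali low replicates 1 and 2, on the compared groups alone and without all Astragali libraries. The 12 medium and low groups of the 6 extracts against the vehicle (40 calls) gave 25 to 42 without 1 library, with 25 without vehicle replicate 1. Medium against low over the 6 extracts (6) gave 1 on the compared groups alone, and the high-dose pairs (13) gave 20 without Astragali low replicates 1 and 2, 21 on the compared groups alone and 23 without all Astragali libraries. Without Astragali low replicates 1 and 2, the sign turned against the vehicle for ATF4 (-0.15), ATF5 (-0.29), DDIT3 (-0.068) and PPP1R15A (-0.38) at the low Astragali dose, and for ATF4 between medium and low dose (0.089). Without 1 library, low dose against vehicle ranged from -0.029 to 0.37 for ATF4, -0.28 to 0.20 for ATF5 and -0.28 to 0.20 for PPP1R15A, each negative without low replicate 2. The cause was not tested. Depth was not varied; ATF3 and GDF15 had 2 to 4 CPM in the vehicle, where counting error is larger.

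Samples shared only a replicate number: the labels give no pairing, and 1 of 513 same-numbered pairs of libraries had a correlation of deviations over 0.1 (median 0.00913, against -0.00503 for other numbers). As a hint from the data, 38 of 57 libraries, but not all, correlated best on average with libraries of their own number. With 3 numbers to choose from, that is more than an even split would give. The main fit does not model this. With a replicate block, Cinnamomi Cortex against the vehicle gave 4 calls, the 12 medium and low groups 37, and the trend differences 9, the dose trend counts were as without it, and 4 calls of ATF4 (Cinnamomi Cortex at all doses and Sagunja-tang at the low dose) were lost (adjusted p = 0.0507 to 0.0539).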
